A study of Mus musculus with 26 samples.

Results

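The 5 genes of the Lrrc8 family, Lrrc8a, Lrrc8b, Lrrc8c, Lrrc8d and Lrrc8e, were followed through 26 mouse RNA sequencing libraries in 7 groups. They were found by matching the Ensembl identifiers of the count tables to gene symbols, and all 5 were present among 37310 counted genes. The family was chosen because Lrrc8c was higher in organoids given oligonucleotide than in organoids without it, so the values of that contrast are a description and carry no test. All 5 members passed the filter on low counts in every comparison.

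LRRC8 proteins are membrane proteins with leucine-rich repeats that assemble into the volume-regulated anion channel, the main route by which a swollen cell releases chloride and small organic osmolytes and so returns to its volume. LRRC8A is needed in every working channel, and it joins with at least another member, whose identity sets what the pore lets through. From work in human and mouse cells, LRRC8D favours organic osmolytes such as taurine and lets in platinum drugs, while LRRC8C and LRRC8E take part in the passage of cyclic dinucleotides, the messengers made by the DNA sensor cGAS. The role of LRRC8B in the channel is less well described.

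The tissue was mammary tumor of C57BL/6 mice carrying MMTV-PyMT, a transgene in which a viral promoter active in mammary epithelium drives the polyoma virus middle T oncogene, and every group shared this background. Organoids, pieces of such tumors grown in Matrigel with FGF2, received Malat1 ASO1, Malat1 ASO2 or the control oligonucleotide ScASO (scASO below) at 500 nM for 6 days, renewed after 3 days, or were labelled Mock. Each of these 4 organoid groups had 4 libraries. An ASO is an antisense oligonucleotide, here one directed against Malat1, an abundant nuclear noncoding RNA. Tumors came from mice given 125 mg/kg of oligonucleotide per week under the skin, with 3 libraries for ASO1, 4 for ASO2 and 3 for scASO. No Mock tumors were analysed here. Age, the number of mice and what a replicate number stands for are not given in the labels, so each p-value reflects no more than how these libraries vary, and that variation may be technical.

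Reads assigned to genes numbered 23973533 to 65146030 in organoid libraries and 9939520 to 51363552 in tumor libraries. The 9 luminal epithelial marker genes were all detected, with sums of 5846 to 10855 CPM in organoids and 4322 to 8631 CPM in tumors. CPM are a gene's reads divided by the scaled size of its library. Malat1, the targeted RNA, averaged 765 ± 261 CPM in ASO1 tumors and 722 ± 249 CPM in ASO2 tumors, against 1640 ± 631 CPM in scASO tumors (SD, n = 3, 4 and 3; exact two-sided permutation p = 0.0167 over 120 splits for both ASOs, and 0.0833 without scASO tumor 1 or 2). In organoids it averaged 117 ± 37.6 CPM with ASO1, 479 ± 581 CPM with ASO2, 682 ± 425 CPM with scASO and 1017 ± 396 CPM with Mock (SD, n = 4 each). In a pair of organoid libraries Malat1 did not match the label: it stood at 1343 CPM in the library labelled ASO2 replicate 1 and at 106 CPM in the library labelled scASO replicate 2. Both ASOs left 35.4% of the scASO level in organoids (exact two-sided permutation p = 0.121 over 495 splits), and 15.8% without those libraries (exact permutation p = 0.00833 over 120 splits). The libraries were left out because of their Malat1 levels, so that second p-value follows in part from the choice and is no test of the knockdown. Results that rest on those libraries are given with and without them. Organoid libraries with the same replicate number deviated together in 24 of 24 pairs, so they are also compared within a number.

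In the GRCm38 build all 5 genes are protein coding and lie on the plus strand. Lrrc8a (ENSMUSG00000007476) lies at chr2:30237715-30263790 and Lrrc8e (ENSMUSG00000046589) at chr8:4226827-4237470. Lrrc8b (ENSMUSG00000070639) at chr5:105415775-105490074, Lrrc8c (ENSMUSG00000054720) at chr5:105519388-105613018 and Lrrc8d (ENSMUSG00000046079) at chr5:105699969-105832436 follow each other with no other coding gene among them. Their nearest coding neighbour, Zfp326, begins 44129 bp after Lrrc8d. Lrrc8a shares 2853 exonic bases with the coding gene Gm28035 and 91 with the antisense gene 1700084E18Rik, neither of which has a line in the count tables. Lrrc8d shares 218 with its antisense gene Lrrc8dos, which had 162 reads in all libraries together against 103726 for Lrrc8d. Gm28035 lies on the same strand as Lrrc8a, so strand would not separate them. For the antisense genes it is not known whether counting used strand. Reads in those stretches therefore cannot be assigned with certainty.

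The promoters of Lrrc8c, of its neighbour Lrrc8b, and of Lrrc8a, whose level moved with that of Lrrc8b across organoid libraries, are shown from 250 bases before to 50 bases after the RefSeq start (GRCm38.p6, plus strand, 5′ to 3′). Capitals mark the GC box, GGGCGG or its reverse complement CCGCCC. The sequences are those at chr5:105519221-105519520 for Lrrc8c, chr5:105415525-105415824 for Lrrc8b and chr2:30237519-30237818 for Lrrc8a.
Lrrc8c: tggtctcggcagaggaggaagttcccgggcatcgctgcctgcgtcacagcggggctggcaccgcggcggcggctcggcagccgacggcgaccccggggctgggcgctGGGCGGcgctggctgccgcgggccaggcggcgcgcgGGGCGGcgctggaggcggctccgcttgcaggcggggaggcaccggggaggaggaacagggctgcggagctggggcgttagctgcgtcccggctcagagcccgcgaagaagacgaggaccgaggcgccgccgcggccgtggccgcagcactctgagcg
Lrrc8b: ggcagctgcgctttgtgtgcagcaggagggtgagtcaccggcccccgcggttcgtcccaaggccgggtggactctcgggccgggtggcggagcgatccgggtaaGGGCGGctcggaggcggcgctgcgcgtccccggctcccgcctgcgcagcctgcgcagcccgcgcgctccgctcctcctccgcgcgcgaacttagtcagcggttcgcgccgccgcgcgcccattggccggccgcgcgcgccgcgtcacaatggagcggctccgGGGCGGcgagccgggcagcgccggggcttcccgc
Lrrc8a: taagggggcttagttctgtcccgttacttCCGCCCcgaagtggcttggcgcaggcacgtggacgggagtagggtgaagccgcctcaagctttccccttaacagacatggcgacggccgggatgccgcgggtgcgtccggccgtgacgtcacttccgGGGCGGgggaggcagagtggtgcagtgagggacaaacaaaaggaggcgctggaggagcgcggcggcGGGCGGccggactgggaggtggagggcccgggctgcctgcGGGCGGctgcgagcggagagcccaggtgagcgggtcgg
All are rich in G and C (78% for Lrrc8c, 78% for Lrrc8b and 70% for Lrrc8a, where the median of all promoters was 52.7%) and hold 44, 51 and 32 CpG pairs against a median of 7. The GC box occurs 2 times in the Lrrc8c window, 2 times in that of Lrrc8b and 4 times in that of Lrrc8a, counting both strands, and 35.7% of 32851 RefSeq promoter windows hold at least a single copy. TGACGTCA, the cyclic AMP response element, occurs once, in the Lrrc8a window, and 1.79% of all windows hold it on either strand. TGGAAA, the core bound by the osmotic stress factor NFAT5, was not found on either strand in the windows of the 5 genes, and 21.4% of all windows hold it. These matches describe letters only and do not overlap each other.

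Lrrc8c, the member on which the choice rested, was higher in each of the 12 organoid libraries with oligonucleotide than in the Mock library of the same number. With ASO1 it was at 49.3, 62.9, 30.8 and 25.7 CPM in numbers 1 to 4. With ASO2 it was at 47.9, 56.9, 23.9 and 23.0 CPM. With scASO it was at 52.9, 54.3, 24.7 and 29.8 CPM, and with Mock at 28.4, 31.6, 14.6 and 13.2 CPM. In every group numbers 1 and 2 were above numbers 3 and 4, and the pooled ranges overlap: the lowest library with oligonucleotide held 23.0 CPM and the highest Mock library 31.6 CPM. Within numbers they did not. The ratio to Mock was 1.73 to 2.11 with ASO1, 1.64 to 1.80 with ASO2 and 1.69 to 2.26 with scASO, with a median of 1.78 over the 12 libraries. The control oligonucleotide thus gave ratios in the same range as the Malat1 ASOs.

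**Figure D1:**
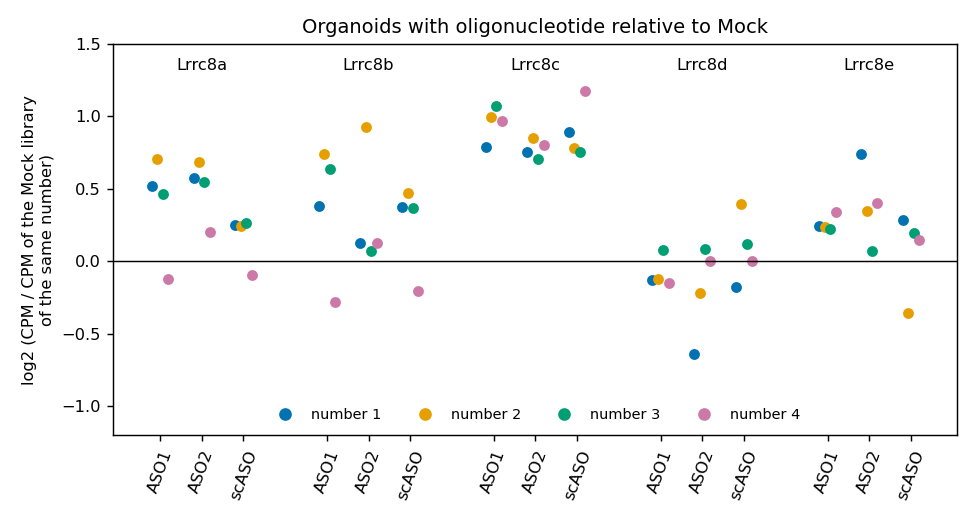
Log2 ratio of each member's CPM in an organoid library with oligonucleotide to its CPM in the Mock library of the same replicate number, by oligonucleotide (x axis, 4 points each, coloured by number). The 12 Lrrc8c ratios all lie above 0, between 1.64 and 2.26 on the linear scale, and those of Lrrc8d lie on both sides of 0.

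As log2 fold changes relative to Mock, Lrrc8c stood at 0.94 ± 0.41 with ASO1, 0.79 ± 0.41 with ASO2 and 0.88 ± 0.41 with scASO (SE, no replicate block, n = 4 each). With the replicate number as a block the values were 0.96 ± 0.090, 0.78 ± 0.090 and 0.90 ± 0.090. The fold changes were alike in both fits, and the standard errors were smaller with the block. Of all 17126 genes tested in organoids, 3.04% had all 12 libraries above the Mock library of their number and 2.35% had all 12 below. With the block, 2.38% of all genes for ASO1, 1.82% for ASO2 and 0.747% for scASO against Mock had an adjusted p under 0.05 (edgeR's quasi-likelihood test, adjusted by the method of Benjamini and Hochberg). Without the block 0% did, while 1.93%, 1.82% and 1.59% had an unadjusted p under 0.05 and DESeq2 called 7 genes for ASO1. Since the family was chosen on this contrast, nothing is read from where Lrrc8c stands among those genes. The library labelled ASO2 replicate 1 and the library labelled scASO replicate 2, whose Malat1 levels go against their labels, had Lrrc8c at 47.9 and 54.3 CPM, each above the Mock library of its number.

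Marker sums of several cell types were also above Mock in this contrast. The summed level of the 8 myoepithelial markers was above the Mock library of the same number in 12 of 12 libraries, by a median ratio of 1.54 (range 1.19 to 1.78), and 7 of 8 markers had a higher mean in each oligonucleotide group than in Mock. The sums ranged from 2922 to 9208 CPM with ASO1, from 2791 to 8263 CPM with ASO2, from 2200 to 6663 CPM with scASO and from 1850 to 5259 CPM with Mock. Over numbers 1 to 3 the myoepithelial sum and Lrrc8c had the same order in each organoid group. Number 4 had the highest sum of each group, with Lrrc8c below numbers 1 and 2. In Mock the sum was 2528, 3040, 1850 and 5259 CPM in numbers 1 to 4. Lrrc8c was lowest in number 4 of Mock, at 13.2 CPM. With the block 3 of 8 myoepithelial markers were called against Mock for ASO1, 3 of 8 for ASO2 and 0 of 8 for scASO. The shares of all genes were 2.38%, 1.82% and 0.747%. The sum of the fibroblast and pericyte list was above Mock in 11 of 12 libraries (median ratio 1.42), with 9 of 10 markers at a higher mean with ASO1, 9 of 10 with ASO2 and 8 of 10 with scASO. The endothelial sum was above in 11 of 12 (median ratio 1.26), with 10, 9 and 10 of 10 markers at a higher mean. The macrophage sum was above in 12 of 12 (median ratio 1.22), although only 4, 2 and 6 of its 10 markers had a higher mean than in Mock with ASO1, ASO2 and scASO. The lymphocyte sum, at 0.321 to 1.39 CPM over all 16 libraries, was above in 12 of 12 (median ratio 1.97), with 6, 5 and 2 of 10 markers at a higher mean. The adipocyte sum was above in 9 of 12, the luminal sum in 6 of 12 (median ratio 1.02) and the skeletal muscle sum in 5 of 12. The part of these cell types in the Lrrc8c difference was not tested. In bulk RNA, fewer cells of a type and less RNA per cell cannot be told apart.

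The obligate subunit Lrrc8a was higher than Mock in most libraries, by less than Lrrc8c. It was at 92.8, 123, 49.0 and 69.7 CPM with ASO1 and at 96.7, 121, 51.8 and 87.2 CPM with ASO2. With scASO it was at 77.0, 89.3, 42.7 and 71.1 CPM, and with Mock at 64.8, 75.4, 35.5 and 75.7 CPM, in numbers 1 to 4. It exceeded the Mock library of its number in 10 of 12 libraries, by ratios of 0.920 to 1.63 (median 1.29), and both exceptions were in number 4. The log2 fold changes with the block were 0.39 ± 0.10 with ASO1, 0.50 ± 0.10 with ASO2 and 0.16 ± 0.10 with scASO (SE).

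Lrrc8b, which neighbours Lrrc8c, was lower in level. It ranged from 9.61 to 22.8 CPM with ASO1, from 6.49 to 25.9 CPM with ASO2, from 7.97 to 19.5 CPM with scASO and from 6.17 to 15.05 CPM with Mock, and 10 of 12 ratios to Mock were above 1 (median 1.29, range 0.823 to 1.898). Lrrc8e was above Mock in 11 of 12 libraries, by ratios of 0.780 to 1.68 (median 1.18). Lrrc8d, the third gene of the chromosome 5 cluster, was on both sides of Mock: it averaged 115 ± 20.6 CPM with ASO1, 107 ± 24.6 CPM with ASO2, 128 ± 11.5 CPM with scASO and 121 ± 16.8 CPM with Mock (SD, n = 4 each), and 6 of 12 ratios were above 1 (median 0.959). The 3 adjacent genes thus stood differently in this contrast, with log2 fold changes for scASO against Mock, with the block, of 0.24 ± 0.17 for Lrrc8b, 0.90 ± 0.090 for Lrrc8c and 0.089 ± 0.12 for Lrrc8d. Zfp326, the next gene, had 0.20 ± 0.11.

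**Figure D2:**
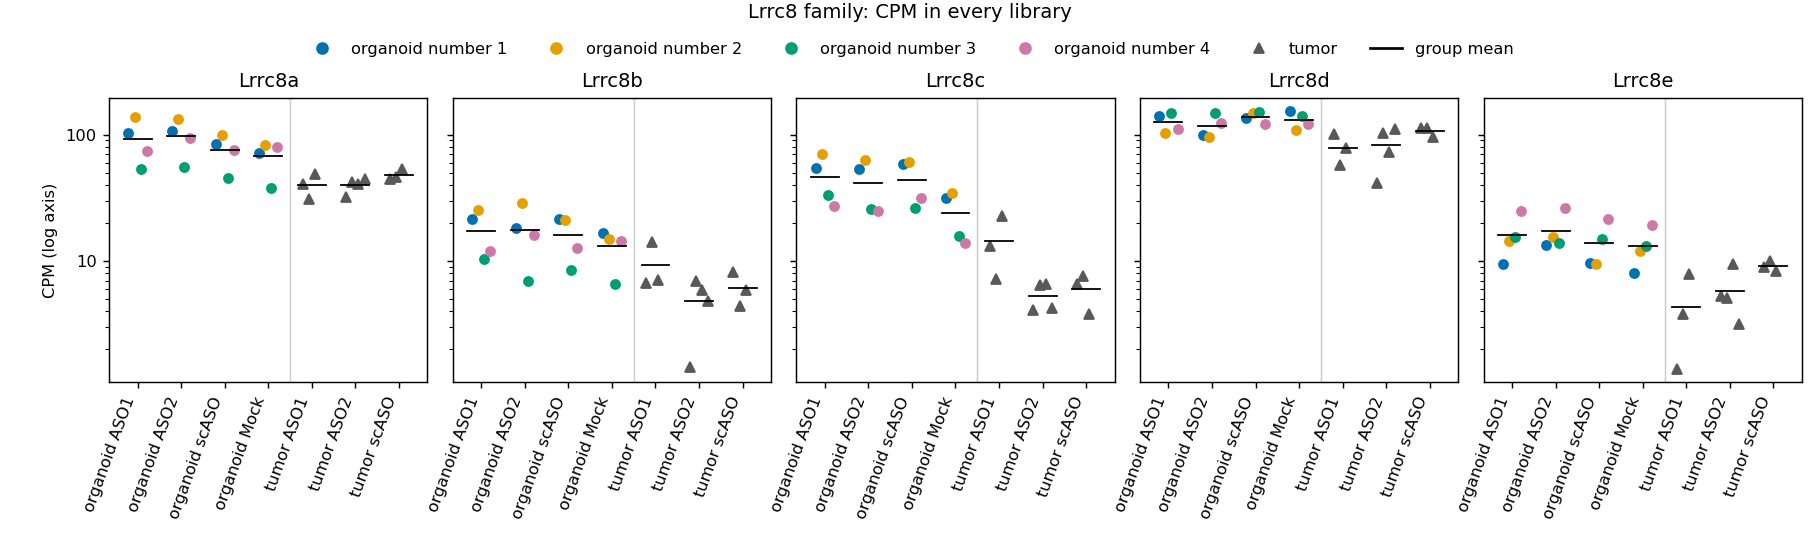
CPM of each Lrrc8 gene in every library, on a scale common to all 26 libraries (log axis), by group. Organoid points are coloured by replicate number and bars are group means; the group means of Lrrc8c are lower in Mock than in the other organoid groups and lower still in tumors, and number 3 is the lowest organoid library of each group for Lrrc8a and Lrrc8b.

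Between replicate numbers the members differed in ways of their own. Lrrc8a averaged 82.8, 102, 44.7 and 75.9 CPM over the 4 organoid groups in numbers 1 to 4, lowest in number 3. Lrrc8c averaged 44.6, 51.4, 23.5 and 22.9 CPM, with numbers 1 and 2 high. Lrrc8e averaged 9.25, 11.6, 13.3 and 21.7 CPM, highest in number 4, the reverse of Lrrc8c. Of the variance of log2 CPM over the 16 organoid libraries, 64.4% lay between numbers and 33.8% between treatments for Lrrc8c, 1.83% remaining. For Lrrc8a the shares were 78.8% and 15.9%, for Lrrc8b 83.2% and 5.63%, for Lrrc8d 45.1% and 19.3%, and for Lrrc8e 82.4% and 9.48%. Lrrc8c had the largest treatment share of the 5, as its choice would give. Across the 16 libraries, which share numbers, log2 CPM of Lrrc8a and Lrrc8b had a Pearson correlation of 0.93, while that of Lrrc8a and Lrrc8d was -0.73. Over the 10 tumors the same pairs had 0.089 and 0.74.

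The genes whose log2 CPM ran closest to a member are given as a description. Over the 16 organoid libraries and 12717 genes, Lrrc8c was closest to Fam167a (r = 0.96), Timp1, an inhibitor of matrix metalloproteinases (0.96), and Rin3, a RAB5 exchange factor (0.96). Lrrc8a was closest to the transcription factor gene Sox4 (0.98), to Rin1 (0.97) and to the mitochondrial carrier gene Slc25a25 (0.97), which also led for Lrrc8b (0.96). For Lrrc8b, Stat6 and Cdk6 followed (both 0.96). Lrrc8d was closest to the DNA repair gene Fanci (0.97), to Alg8 (0.95) and to Rrm1, a subunit of ribonucleotide reductase (0.95). Lrrc8e was closest to Lgals3, which encodes galectin-3 (0.98), to Mir22hg (0.97) and to Tifa (0.97).

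Malat1 ASOs against scASO in organoids is a contrast that the choice did not use, and no member passed the threshold in it. Over both ASOs the log2 fold change of Lrrc8c was -0.015 ± 0.35 (SE) without the block and -0.036 ± 0.077 with it (adjusted p = 0.822). In 3 of 8 libraries Lrrc8c exceeded the scASO library of its number, by ratios of 0.773 to 1.25 (median 0.951). Without the 2 libraries that go against their labels it did so in 1 of 5. Lrrc8c levels with Malat1 ASOs thus lay on both sides of those with the control oligonucleotide.

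Lrrc8a was higher than scASO in 7 of 8 libraries, by ratios of 0.980 to 1.38. Its log2 fold change over both ASOs was 0.30 ± 0.29 without the block (adjusted p = 0.9998) and 0.29 ± 0.089 with it (unadjusted p = 0.00689, adjusted p = 0.196). With the block the values were 0.10 ± 0.15 for Lrrc8b, -0.22 ± 0.10 for Lrrc8d and 0.26 ± 0.11 for Lrrc8e, with adjusted p of 0.717, 0.273 and 0.261. By edgeR 0% of 17126 genes were called in either fit. An unadjusted p under 0.05 was found for 1.06% of genes without the block and for 18.4% with it. With the block Lrrc8a stood at rank 592 of the 17126 genes by p. Without both libraries Lrrc8a stood above scASO in 4 of 5 libraries, Lrrc8d in 2 of 5 and Lrrc8e in 3 of 5. The log2 fold changes over both ASOs depended on the setting, of which 7 alternatives were fitted, some without both libraries. They ran from -0.22 to -0.035 for Lrrc8d and from 0.059 to 0.26 for Lrrc8e. For Lrrc8a they ran from 0.25 to 0.42 and for Lrrc8b from 0.10 to 0.27.

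**Figure D3:**
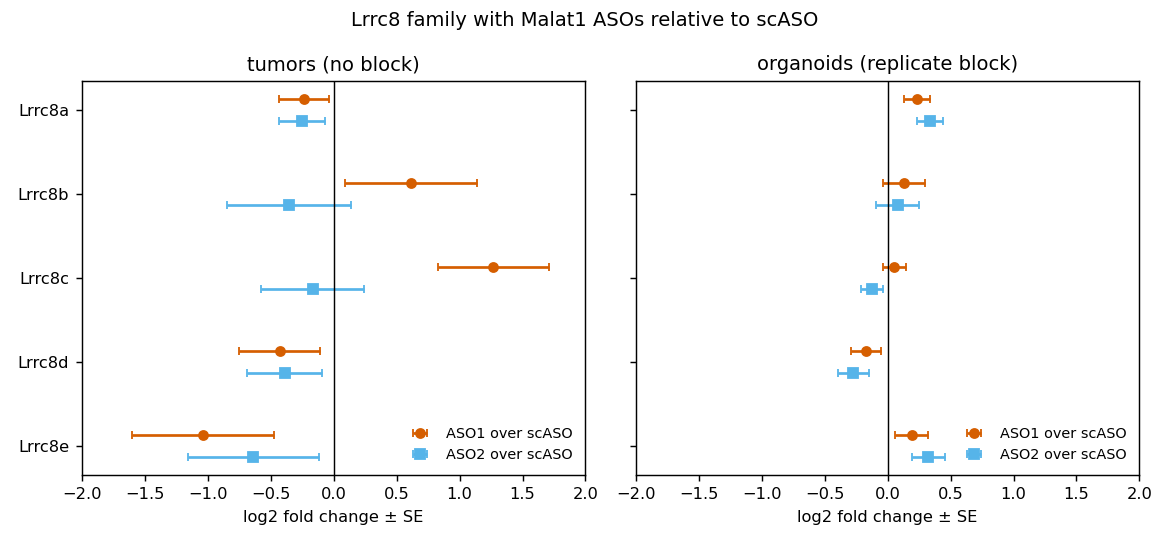
Log2 fold change of the 5 members with each Malat1 ASO over scASO, in tumors (left, no replicate block) and in organoids (right, replicate block); points are estimates and bars are ± SE. Lrrc8c with ASO1 in tumors, at 1.27 ± 0.44, is the estimate farthest above 0, and no member passed the threshold on adjusted p.

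In tumors Lrrc8c was highest in a pair of ASO1 tumors, and no group difference passed the threshold. With ASO1 it was at 14.9, 8.22 and 26.2 CPM, with ASO2 at 4.76, 7.26, 7.48 and 4.73 CPM, and with scASO at 7.48, 8.67 and 4.27 CPM. The remaining ASO1 tumor lay within the scASO range, and the ASO2 and scASO tumors overlapped. Relative to scASO the log2 fold change was 1.27 ± 0.44 with ASO1 (SE; unadjusted p = 0.0156, adjusted p = 0.535) and -0.17 ± 0.41 with ASO2 (adjusted p = 0.955), both from the edgeR fit. Over both ASOs it was 0.55 ± 0.38 (adjusted p = 0.848). All ASO1 tumors lay above all ASO2 tumors, as did 2.97% of the 17354 genes tested, and the log2 difference of ASO1 over ASO2 was 1.43 ± 0.41 (unadjusted p = 0.00501, adjusted p = 0.490). That comparison was added after the values were seen. At an unadjusted p under 0.05, 8.45% of genes passed for ASO1 against scASO and 10% for ASO1 against ASO2, and at an adjusted p under 0.05, 0.00576% and 0%. For ASO2 against scASO the shares were 5.14% and 0%.

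The tumors with high Lrrc8c also had a high sum over the myoepithelial list, genes of the contractile basal layer that surrounds mammary ducts. The summed level of the 8 markers was 2185, 483 and 3538 CPM in ASO1 tumors 1 to 3, ranged from 446 to 1081 CPM in ASO2 tumors and from 343 to 1362 CPM in scASO tumors. ASO1 tumor 2, the lowest of its group for Lrrc8c, was also the lowest for the markers. Over the 10 tumors the Pearson correlation of log2 values was 0.931 (permutation p = 0.00020, adjusted p = 0.0080 over 40 relations, 5 members with 8 marker lists) and Spearman's rho 0.867 (permutation p = 0.00237, adjusted p = 0.0948). Without the 2 tumors farthest from the median of the marker sum r was 0.773. Without ASO1 tumor 1 r was 0.918 (adjusted permutation p = 0.0756) and without ASO1 tumor 3 it was 0.880 (adjusted permutation p = 0.0642), so the call rests on those tumors. It was the single relation of the 40 to pass on Pearson's r. By group medians the list's members did not move alike, although 7 of 8 had a higher mean in ASO1 than in scASO tumors. Among its contractile genes, which smooth muscle also expresses, Acta2 stood at a median of 1095 CPM with ASO1, 279 CPM with ASO2 and 216 CPM with scASO, Myh11 at 499, 85.7 and 93.7 CPM, and Cnn1 at 156, 52.6 and 32.2 CPM. Among its basal epithelial genes, Krt5 stood at a median of 109 CPM with ASO1, 80.9 CPM with ASO2 and 139 CPM with scASO, and Trp63 at 50.5, 42.1 and 52.1 CPM.

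**Figure D4:**
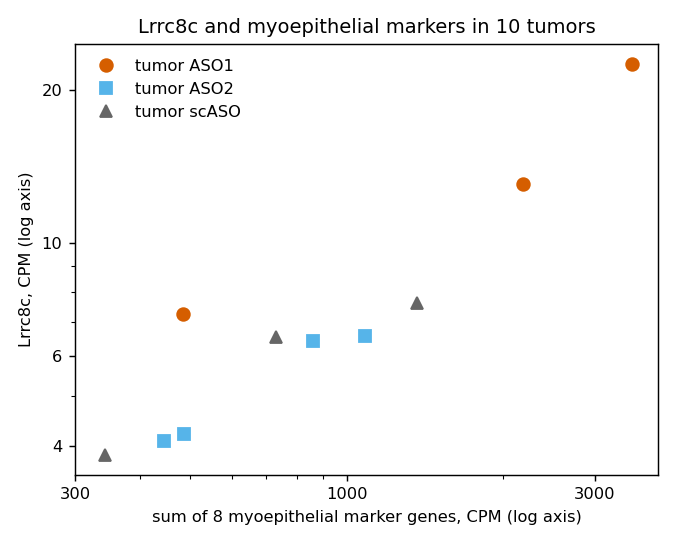
Lrrc8c against the summed level of 8 myoepithelial marker genes in the 10 tumors (both in CPM on the scale common to all libraries, log axes), by group. Each point is a tumor; the ASO1 tumors at 2185 and 3538 CPM of markers hold the highest Lrrc8c, and the remaining ASO1 tumor, at 483 CPM, lies among the others.

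Endothelial markers ran the same way: their sum was 97.6 to 159 CPM in ASO1 tumors, 43.3 to 88.5 CPM in ASO2 tumors and 72.7 to 76.6 CPM in scASO tumors, and its correlation with Lrrc8c was 0.807 (permutation p = 0.00522, adjusted p = 0.104; rho 0.794, permutation p = 0.00885; 0.530 without the 2 farthest tumors). Among markers, 7 of 8 myoepithelial and 9 of 10 endothelial genes had a higher mean in ASO1 than in scASO tumors, and 1 of 8 and 2 of 10 in ASO2 than in scASO tumors. The part of these cell types in the Lrrc8c values was not tested. The genes closest to Lrrc8c over the 10 tumors and 13499 genes were Tril, a Toll-like receptor accessory gene (r = 0.98), the integrin subunit gene Itga9 (0.97) and the growth factor gene Bmp7 (0.97). Lrrc8a ran closest to the tumor necrosis factor receptor gene Tnfrsf1a (0.96), Lrrc8b to Gm4887 (0.96), Lrrc8d to 2900026A02Rik (0.97) and Lrrc8e to Sdcbp2 (0.90).

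The other members had lower estimates in tumors given ASO, apart from Lrrc8b with ASO1. Lrrc8e was at 1.59, 4.27 and 9.10 CPM with ASO1, at 6.12, 5.73, 10.8 and 3.58 CPM with ASO2, and at 10.3, 11.3 and 9.23 CPM with scASO. Every ASO1 tumor lay below every scASO tumor, as did 8.48% of all genes, whereas a single ASO2 tumor reached the scASO range. Its log2 fold change was -1.04 ± 0.56 with ASO1 (adjusted p = 0.632) and -0.64 ± 0.52 with ASO2 (adjusted p = 0.888). The luminal epithelial sum was also lower with ASO1, at 4322 to 5610 CPM in ASO1 tumors, all below the 5781 to 7487 CPM of scASO tumors, with 1 of 9 markers at a higher mean in ASO1. In ASO2 tumors it was 4805 to 8631 CPM. ASO2 tumor 4, the library with the fewest reads in genes (9939520), had the highest luminal sum, 8631 CPM, and the lowest Lrrc8e of its group, 3.58 CPM. Over the 10 tumors the Pearson correlation of Lrrc8e with the luminal sum was 0.326 (permutation p = 0.365, adjusted p = 0.724). The part of luminal cells in the Lrrc8e values was not tested.

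Lrrc8a was at 46.8, 35.1 and 56.6 CPM in ASO1 tumors and at 37.4, 48.1, 46.8 and 50.3 CPM in ASO2 tumors, against 51.2, 52.7 and 59.1 CPM in scASO tumors. All ASO2 tumors lay below all scASO tumors, as did 3.38% of genes, with a log2 fold change of -0.25 ± 0.18 (adjusted p = 0.886). Adipocyte, fibroblast and skeletal muscle lists each had 10 of 10 markers at a higher mean in ASO2 than in scASO tumors. Their sums were 31.4 to 910 CPM in ASO2 tumors against 22.9 to 27.9 CPM in scASO tumors for adipocytes, 413 to 2464 CPM against 383 to 581 CPM for fibroblasts, and 23.1 to 2160 CPM against 23.4 to 50.8 CPM for muscle. ASO2 tumor 1, which held the highest adipocyte and muscle sums of all tumors, had the lowest Lrrc8b and Lrrc8d of all tumors and the lowest Lrrc8a of its group. Over the 10 tumors the Pearson correlations of Lrrc8b with the adipocyte, fibroblast and muscle sums were -0.67, -0.75 and -0.84. Without the 2 tumors farthest from the median of each sum they were -0.31, -0.33 and -0.043. Those of Lrrc8d went from -0.58, -0.67 and -0.60 to 0.097, 0.057 and 0.33. Those of Lrrc8a went from -0.38, -0.22 and -0.45 to 0.081, 0.73 and 0.26. None of these relations passed. The part of these tissues in the ASO2 values was not tested. Lrrc8d averaged 90.7 ± 25.5 CPM with ASO1, 93.2 ± 34.6 CPM with ASO2 and 122 ± 12.99 CPM with scASO (SD, n = 3, 4 and 3), and its log2 fold change over both ASOs was -0.41 ± 0.27 (adjusted p = 0.846). Lrrc8b averaged 10.6 ± 4.59, 5.43 ± 2.70 and 6.95 ± 2.19 CPM in ASO1, ASO2 and scASO tumors, with a log2 fold change over both ASOs of 0.13 ± 0.45 (adjusted p = 0.975). The median log2 fold change of the 5 members over both ASOs was -0.24, where the median of all genes was 0.049. No member passed the threshold in tumors, and over both ASOs 0% of 17354 genes did (5.86% at an unadjusted p under 0.05; DESeq2 called 19 genes).

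Whether the response to Malat1 ASOs differed between organoids and tumors was tested as the difference of both fold changes in a fit of all libraries. The difference, organoids minus tumors, was 0.57 ± 0.38 for Lrrc8a, 0.0077 ± 0.60 for Lrrc8b, -0.55 ± 0.54 for Lrrc8c, 0.22 ± 0.30 for Lrrc8d and 1.11 ± 0.55 for Lrrc8e (log2, SE). Lrrc8e, with a positive estimate in organoids and a negative one in tumors, had an unadjusted p of 0.0566 and an adjusted p of 0.99997. None passed, and 0% of 18695 genes did (4.45% at an unadjusted p under 0.05; DESeq2 called 2 genes).

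Lrrc8c was higher in scASO organoids and in Mock organoids than in scASO tumors. On the scale common to all libraries it was at 44.1 ± 17.7 CPM in scASO organoids (SD, n = 4) and 5.99 ± 1.95 CPM in scASO tumors (SD, n = 3), a log2 fold change of 2.88 ± 0.50 (SE; adjusted p = 0.00035, edgeR). The level in organoids given oligonucleotide entered the choice of the family, so that p-value follows in part from the choice and is no test. The same difference taken with Mock organoids, at 23.8 ± 10.6 CPM, was 1.99 ± 0.48 (adjusted p = 0.00566, edgeR). With scASO organoids, but without the 2 organoid libraries that go against their labels, it was 2.69 ± 0.51 (adjusted p = 0.00185), under the same limit. Lrrc8c was the single member of 5 called with scASO organoids and also with Mock organoids. With scASO organoids 11.4% of 18695 genes were called higher and 12.1% lower than in tumors. Lrrc8b had 1.38 ± 0.51 (adjusted p = 0.0553), Lrrc8a 0.67 ± 0.32 (adjusted p = 0.135), Lrrc8e 0.62 ± 0.46 (adjusted p = 0.336) and Lrrc8d 0.37 ± 0.25 (adjusted p = 0.299). Lrrc8b passed with DESeq2 (adjusted p = 0.0261) and in a fit of the compared groups alone (adjusted p = 0.0286). All 4 scASO organoid libraries lay above all 3 scASO tumors for Lrrc8b, Lrrc8c and Lrrc8d, as they did for 19.4% of genes. For Lrrc8c that too follows in part from the choice. Culture, dose form and the cells present differ between organoids and tumors and cannot be told apart. Myoepithelial marker sums were 2200 to 6663 CPM in scASO organoids and 343 to 1362 CPM in scASO tumors, and endothelial sums 7.40 to 32.3 CPM and 72.7 to 76.6 CPM. Individual markers did not move together: 4 of 8 myoepithelial genes had a higher mean in scASO organoids, Krt5 at a median of 1473 CPM against 139 CPM, while Acta2 stood at 276 CPM against 216 CPM and Myh11 at 38.3 CPM against 93.7 CPM.

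To compare levels between genes, CPM were divided by length in kb of all annotated exons joined. By this measure median levels were 17.5 CPM per kb in organoids and 11.4 in tumors for Lrrc8a, 9.48 and 8.87 for Lrrc8d, 3.96 and 0.977 for Lrrc8c, 3.11 and 1.84 for Lrrc8e, and 2.14 and 1.08 for Lrrc8b. Lrrc8a led in 14 of 16 organoid libraries and in 10 of 10 tumors. The order of the first 2 depends on the length taken: by the longest transcript of Lrrc8d, 5736 rather than 12573 bases, its medians were 20.8 in organoids and 19.4 in tumors, above those of Lrrc8a. Lrrc8b, Lrrc8c and Lrrc8e changed places among libraries in both systems, so their order is not set beyond their spread. Lrrc8c made up 4.92 to 17.5% of the summed level per kb of the family in organoids and 2.15 to 12.6% in tumors, and Lrrc8a 33.8 to 56.7% and 43.9 to 58.3%.

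The wider set of volume and anion transport genes was described through 5 lists of 61 genes. Against scASO none of the list genes was called, in organoids or in tumors, with or without the block. Against Mock in organoids the single call was Hspa4l, an osmotic-stress chaperone gene of the NFAT5 list, with the block: 0.53 ± 0.12 with ASO1 (log2, SE; adjusted p = 0.0414) and 0.59 ± 0.12 with ASO2 (adjusted p = 0.0321). This is 1 of 61 list genes, where 2.38% of all genes were called for ASO1 and 1.82% for ASO2, so the lists held no larger share of calls than all genes. Hspa4l averaged 79.8 ± 27.0 CPM with ASO1 and 86.1 ± 36.1 CPM with ASO2, against 54.4 ± 17.4 CPM with Mock (SD, n = 4 each), and the group ranges overlap. In those fits the list's median was 0.15 with ASO1 and 0.14 with ASO2 over 11 tested genes. No other chloride channel, pannexin, cotransporter or cyclic dinucleotide gene of the lists passed there.

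Between scASO organoids and scASO tumors more list genes differed, as did more genes overall: 11.4% of all 18695 genes were called higher and 12.1% lower in organoids, and the counts below stand against those shares. Of 18 volume-sensing and other chloride channel genes 4 were higher in organoids and 0 lower, with a list median of 0.37 (log2), where the median of all 18695 genes was -0.0006. Slco2a1, a prostaglandin transporter that also forms a maxi-anion channel, was at 506 ± 69.7 CPM in organoids and 185 ± 29.4 CPM in tumors (log2 fold change 1.45 ± 0.26, adjusted p = 0.00049). Ano6, a calcium-activated scramblase and channel, rose by 1.07 ± 0.26 (adjusted p = 0.00522), and Cftr, the cyclic AMP-gated chloride channel, was at 3.36 ± 0.969 CPM in organoids and 0.349 ± 0.167 CPM in tumors. Ano1, the most abundant of that list per length, did not pass at 0.41 ± 0.42 (adjusted p = 0.494).

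Of 18 cotransport and WNK kinase genes 4 were higher and 0 lower (list median 0.14). Slc12a7, a potassium-chloride cotransporter used in volume decrease, was at 89.8 ± 15.9 CPM in organoids and 36.9 ± 5.60 CPM in tumors (1.28 ± 0.27). The kinase gene Wnk4 was at 38.9 ± 18.2 CPM in organoids and 3.97 ± 1.03 CPM in tumors (3.29 ± 0.79), and Atp1b1, a sodium pump subunit, had 1.53 ± 0.35. Of 11 tested NFAT5 and osmolyte genes 2 were higher and 1 lower (list median 0.49). Slc6a6, the taurine transporter, and Hspa4l rose by 1.297 ± 0.29 and 1.08 ± 0.36, and Aqp1, a water channel of endothelium and red cells, was at 0.798 ± 0.343 CPM in organoids and 33.6 ± 7.37 CPM in tumors.

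Of 10 cyclic dinucleotide genes 3 were higher and 0 lower (list median 0.58). Slc19a1, a folate carrier that also imports cyclic dinucleotides in human cells, was at 36.2 ± 1.65 CPM in organoids and 17.5 ± 0.401 CPM in tumors (1.05 ± 0.14). Abcc1, an exporter, rose by 2.38 ± 0.58 and Cgas, the sensor that makes the messenger, by 0.92 ± 0.31. Of 3 pannexins, other large-pore channels, Panx2 was lower in organoids at 0.390 ± 0.101 CPM against 1.51 ± 0.700 CPM in tumors (-1.95 ± 0.41). Beside these counts, 8 of 10 endothelial, 7 of 10 fibroblast, 7 of 10 macrophage, 6 of 8 tested lymphocyte, 4 of 8 myoepithelial and 3 of 10 adipocyte markers were called between scASO organoids and scASO tumors, and 0 of 9 luminal and 0 of 10 muscle markers. Fibroblast sums were 98.2 to 282 CPM in scASO organoids and 383 to 581 CPM in scASO tumors, and macrophage sums 190 to 456 CPM and 413 to 527 CPM. The part of these cell types in the list counts and in the Lrrc8c difference was not tested.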

How the data were processed

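Polyadenylated RNA of mouse mammary tumors and organoids was extracted with TRIzol and made into TruSeq libraries, per the labels' protocols. CASAVA, FastQC, STAR, HTSeq, DESeq2 and the mm9 build are named, without versions or parameters, in the submitters' processing notes; which annotation was used, and whether strand was, was not given in the sources used here. The authors deposited whole-number read counts per gene for each library, with 37310 genes and 5 lines of unassigned reads that were left out of library sizes. Those lines held 8.34 to 14.6% of reads without a feature in organoids and 11.1 to 24.5% in tumors, and reads aligned to several places came to 21.2 to 32.7% and 24.1 to 44.0%. Symbols were found for 32620 genes and not for 4690. Within groups, counts of any 2 libraries differed by more than sampling noise (chi-square per degree of freedom of at least 13.98).

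Fits were made across all genes with edgeR 4.0.16 (R 4.3.3, limma 3.58.1): TMM scaling, genes with a count of 10 in enough libraries and 15 in all, the quasi-likelihood test and Benjamini-Hochberg adjustment at 0.05, separately in organoids and in tumors, and over all 26 libraries for organoids against tumors. Standard errors come from each log2 fold change and its F statistic (size over root F). Correlations between genes used log2 CPM with a prior count of 2. Those of members with marker sums used log2 CPM without a prior count, log2 marker sums with a unit offset, and 100000 permutations. Python 3.11.15, NumPy 2.4.6, pandas 2.3.3 and matplotlib 3.10.9 did the rest, and the fits were tested on simulated data.

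Replicate numbers come from the labels. Deviations from group means correlated in 24 of 24 same-number organoid pairs (0.47 to 0.93, median 0.82) and in 2 of 9 tumor pairs above 0.1, so numbers pair organoid libraries and not tumors. The main fits carry no replicate block. Blocked values stand beside results in organoids, and tumor results are given without the block unless stated. With the block, ASO1 over scASO in tumors was 1.19 ± 0.51 for Lrrc8c and -1.32 ± 0.51 for Lrrc8e (log2, SE). Neither passed (adjusted p = 0.689 and 0.666, edgeR).

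The members, gene lists, marker lists and tests were chosen with earlier results of these data known. Named genes are the 5 members, Malat1, their nearest coding neighbours, up to 3 called genes per list by smallest p with the most abundant per length, and the genes most correlated with each member among genes whose mean log2 CPM reached 1; a list gene that this rule names is not reported here. Lengths and loci are from GENCODE M21 on GRCm38, promoters from RefSeq on GRCm38.p6, and neither was used with coordinates of the mm9 build. Alternatives were RLE size factors, no filter on low counts, DESeq2 1.42.0, the compared groups alone, the replicate block, leaving out each library, and leaving out both organoid libraries that go against their labels; Mock organoids in place of scASO organoids, ASO1 against ASO2, the block combined with leaving out both libraries, and leaving out libraries for Malat1 and the marker correlations were added after seeing the data.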

Additional observations from a re-analysis of the deposited data

Results flagged for a closer look

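Among 30 groups of 4 libraries tested for a library far from its group, 3 were found, and chance gives about 1 in 20. Lrrc8b was at 6.17 CPM in Mock organoid replicate 3, where the other Mock libraries held 13.6 to 15.05 CPM. Lrrc8e was at 24.5 CPM in ASO2 organoid replicate 4, where the others held 12.2 to 13.9 CPM, and number 4 was the highest for Lrrc8e in all 4 organoid groups. Malat1 was at 1343 CPM in the library labelled ASO2 replicate 1, where the other ASO2 organoid libraries held 88.6 to 287 CPM.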

How the results depend on the processing

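Of the estimates for the members under all alternatives, 1346 counted as the same, 59 turned direction and 5, all of Lrrc8b between scASO organoids and scASO tumors, moved past the threshold. Outside the Mock contrasts, the same meant the same direction and side of the threshold. Estimates against Mock carry no test and counted as the same if they shifted by less than the SD within groups, whatever their direction. Some of these changed sign without being among the 59. With a library left out, Lrrc8d with ASO1 over Mock ran from -0.17 to 0.019 and Lrrc8e with scASO over Mock from -0.23 to 0.35. Every estimate among the 59 was smaller than its standard error under that alternative, and the cause was not tested. With the replicate block, Lrrc8b in tumors over both ASOs was -0.051, Lrrc8d in tumors with ASO1 over ASO2 was 0.16 and Lrrc8b in organoids with ASO1 over ASO2 was 0.048 (log2). Without both organoid libraries that go against their labels the last was 0.0058 and Lrrc8c over both ASOs in organoids was 0.094. With the block and without both libraries Lrrc8c with ASO1 over scASO was -0.0040 and Lrrc8d with ASO1 over ASO2 was -0.016.

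With the replicate block, which pairs organoid libraries by number, 407 genes were called against Mock for ASO1, 312 for ASO2 and 128 for scASO, against 0 in each fit without it. With 2 choices changed together, the block and leaving out both libraries, the counts were 1159, 593 and 308; DESeq2 called 7 for ASO1. Against scASO, the block without both libraries called 4 over both ASOs, 1 with ASO1 and 3 with ASO2. In tumors, whose numbers do not pair, ASO1 against scASO had 1 called gene, 0 with the block, 0 in a fit of the compared groups, 3 without a filter and 117 with DESeq2. DESeq2 called 19 over both ASOs in tumors, 42 with ASO2 and 162 for ASO1 against ASO2, where no filter gave 4, and it called 2 for the difference in response. Malat1 in organoids over scASO was -2.67 without both libraries and -1.50 with them. Lrrc8d per kb was 20.8 in organoids and 19.4 in tumors by longest transcript. No paired analysis was possible for organoids against tumors because the labels tie no organoid library to a tumor.

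Leaving out each library in turn gave these ranges. In tumors Lrrc8b over both ASOs ran from -0.088 to 0.40 and Lrrc8c with ASO2 from -0.40 to 0.044; the called genes ran from 0 to 3 for ASO1, 0 to 1 for ASO2 and 0 to 1 for ASO1 against ASO2. For the last, Lrrc8a ran from -0.17 to 0.17, Lrrc8d from -0.29 to 0.14 and Lrrc8e from -1.16 to 0.018. In organoids over both ASOs Lrrc8b ran from -0.080 to 0.28 and Lrrc8c from -0.19 to 0.16. With ASO1 Lrrc8b ran from -0.11 to 0.30, Lrrc8c from -0.20 to 0.24 and Lrrc8e from -0.12 to 0.50, and with ASO2 Lrrc8b from -0.20 to 0.39 and Lrrc8c from -0.35 to 0.088. With ASO1 over ASO2 Lrrc8a ran from -0.34 to 0.093, Lrrc8b from -0.27 to 0.32, Lrrc8c from -0.11 to 0.41 and Lrrc8e from -0.41 to 0.19. Between scASO organoids and scASO tumors the called genes ran from 2632 to 4709, Lrrc8b from 1.18 to 1.63 and Lrrc8c from 2.64 to 3.09. For the difference in response 0 to 1 genes were called and Lrrc8b ran from -0.25 to 0.23. Over scASO, Malat1 in tumors ran from -1.49 to -0.88 and in organoids from -2.25 to -1.12, and the marker relations called from 0 to 2.

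Lrrc8b, Lrrc8c and Lrrc8e rested on as few as 45, 45 and 34 reads in a tumor library, which limits their precision there.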
